A study of Rattus norvegicus with 9 samples.

Results

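Crym, Olfm1, Rnase4, Tm4sf1, Plpp3 and Marchf11 are 6 genes with bright array signals in cultured rat ureteric buds given pleiotrophin or conditioned medium, and signals several-fold lower in buds given heregulin. They were chosen on those signals. Every probe set that the platform's probe table assigns to one of the 6 symbols was taken, which gave 10 of the 15866 probe sets that are not controls, and 6 of the 10411 genes with a symbol. Of the 10 probe sets 8 passed the filter on dim probe sets, which kept 10106 in all, and each of the 6 genes had at least 1 kept probe set. The difference of heregulin from the other media is given as a description, because it chose the genes. The difference between pleiotrophin and conditioned medium is given with its test, although a gene picked for a large fall from one medium tends to be high in that medium.

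Each sample was RNA from 3 ureteric buds, taken from Sprague-Dawley rat embryos at embryonic day 13 and cultured without mesenchyme over 4 days, embedded in equal volumes of growth factor-reduced Matrigel and type I collagen. Every medium held FGF1 at 250 ng/ml and GDNF, which activates the Ret receptor, at 125 ng/ml. The HRG group also received human heregulin alpha, an ErbB receptor ligand, at 500 ng/ml. Pleiotrophin, a secreted heparin-binding protein isolated from the BSN medium, was given to the PTN group at roughly 3 µg/ml. The BSN group received that medium whole, conditioned by a metanephric mesenchymal cell line, and the labels do not list its other contents. There were 3 samples and 3 arrays per medium, described as biological replicates, and no group had FGF1 and GDNF alone, so a low signal in one medium cannot be told from a high one in another. The series title lists PTN with the branching cultures while the PTN sample descriptions call the growth non-branching, so media and not shapes name the groups here.

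The ureteric bud is an epithelial tube that grows out of the nephric duct, branches in response to GDNF from the mesenchyme and forms the collecting ducts. Its tip cells carry Ret and divide and branch, while its stalk matures toward collecting duct. The 6 genes come from unrelated families. Crym encodes mu-crystallin, a cytosolic protein that binds thyroid hormone and also acts as a ketimine reductase. Olfm1 encodes a secreted olfactomedin best known from brain and neural crest, and Rnase4 a secreted ribonuclease of the pancreatic ribonuclease family. Tm4sf1 is a plasma membrane protein of the L6 family, Plpp3 a membrane phosphatase that removes the phosphate from lysophosphatidic acid and sphingosine 1-phosphate outside the cell, and Marchf11 a membrane-bound RING-type ubiquitin ligase.

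Of the 6 genes 5 had a promoter in the RefSeq table, build GRCr8, a window of 250 bases before to 50 bases after the annotated start. The motif GGGCGG, the GC box read by Sp family factors, was sought on both strands, and it was present in 4 of 5 members (80%) and in 33.1% of all 33469 promoters. The stretches around those letters are shown because they are the most widely shared of 7 motifs sought. They lie at chr3:31931254-31931315, chr15:26786141-26786212, chr5:125155956-125155999 and chr2:78628611-78628653, all on the plus strand, are written in the direction of the gene, and have the GC box, or its reverse complement CCGCCC, in capitals.
Olfm1: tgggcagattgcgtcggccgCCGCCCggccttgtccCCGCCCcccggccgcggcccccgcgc
Rnase4: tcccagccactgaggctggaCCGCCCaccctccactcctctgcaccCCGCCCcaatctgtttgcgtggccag
Plpp3: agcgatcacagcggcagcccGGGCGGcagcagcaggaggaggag
Marchf11: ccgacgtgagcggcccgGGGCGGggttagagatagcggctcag
Starts are those of the promoter table. That of Olfm1 lies well inside the annotated gene and that of Marchf11 shortly after its first base. The boxes began 62 and 46 bases before the start in Olfm1, 126 and 100 in Rnase4, 24 in Plpp3 and 233 in Marchf11. Genes on both sides of the difference between pleiotrophin and conditioned medium, described further on, therefore held these letters. The E-box CANNTG was found in 2 of 5 members (40%) and in 72.1% of all promoters, and AACAAT, a core bound by Sox factors, in 1 of 5 (20%) against 11.7%. The TATA box TATAAA was in none of the 5 windows and in 14.2% of all promoters. The narrower E-box CACGTG, which CANNTG also covers, was in none and in 6.42%. The AP-1 motif TGANTCA was in none and in 7.33%, and the Ets motif CCGGAA in none and in 15%. The share of G and C was 72% in the Marchf11 window, 64.3% in Olfm1, 56.7% in Rnase4, 51.3% in Plpp3 and 46.7% in Tm4sf1. Its median over all promoters was 51.7%, and its part in the count of GC boxes was not tested. A match describes letters in a window and is no evidence of binding.

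The arrays were of one scale, with trimmed mean signals of 2500.48 to 2500.58. Of 15 ureteric epithelial markers 11 were on the array, and their summed signal was 153084 to 167139 in HRG, 135800 to 161085 in PTN and 160430 to 170411 in BSN, with Pax8 below the 40th percentile on every array. Single markers differed inside that sum. Ret averaged 918 ± 171 in HRG, 18756 ± 850 in PTN and 13512 ± 1883 in BSN (SD, n = 3). Krt19 went the other way, at 10622, 2181 and 2925. Of the 10 kept markers 3 were higher and 3 lower in HRG against PTN (limma, adjusted p under 0.05), against 14.1% and 11.7% of all kept probe sets. In HRG against BSN 1 was higher and 3 were lower, against 6.92% and 8.86%. The 6 mesenchyme and stroma markers on the array summed to 2402 to 2844 in HRG, 2481 to 2792 in PTN and 2233 to 2999 in BSN, and the 5 endothelial markers to 1371 to 1713, 1588 to 1973 and 1612 to 2016 in the same order. Kdr, a VEGF receptor and the one kept endothelial marker, averaged 329 ± 27.6 in HRG, 840 ± 229 in PTN and 742 ± 29.5 in BSN (SD, n = 3). It was lower in HRG than in PTN (limma, adjusted p = 0.00258) and lower in HRG than in BSN (0.00792), with its HRG and BSN means both below the 40th percentile, and the part of endothelial RNA in the members' signals was not tested. Xist, the noncoding RNA of the inactive X chromosome in female cells, had signals of 23728, 13.9 and 8614 in HRG, 15685, 13.8 and 9071 in PTN and 19451, 23556 and 11727 in BSN. HRG replicate 2 and PTN replicate 2 were thus the arrays with almost no Xist. The 8 member probe sets kept both direction and call in the comparison of PTN with BSN when those 2 arrays were left out.

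Crym had the largest HRG folds of the 6 genes, against PTN and against BSN, while its PTN and BSN signals overlapped. Its probe set 1368059_at gave signals of 2302, 2132 and 1417 in HRG, 29769, 32326 and 44714 in PTN and 21064, 34694 and 32643 in BSN. All HRG arrays were far below every other array. On the log2(signal + 16) scale, which every fold below uses, Crym was 18.2-fold lower in HRG than in PTN and 15-fold lower in HRG than in BSN. Among all kept probe sets these were the 7th and 5th largest falls. Within each array Crym ranked above 57.5% to 67.4% of probe sets in HRG, 98.8% to 99.5% in PTN and 97.9% to 99.4% in BSN. Between the media where it is bright, Crym averaged 35603 ± 7993 in PTN and 29467 ± 7349 in BSN (SD, n = 3), a log2 difference of 0.28 with a 95% interval of -0.21 to 0.78 that did not pass (limma, adjusted p = 0.393). The interval leaves room for a PTN level between 0.864 and 1.71 times that in BSN. Of all kept probe sets 51.2% differed as much or more between those media.

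Olfm1, the secreted olfactomedin, had its lowest signal in HRG, an intermediate one in PTN and its highest in BSN, with no overlap between any 2 media. Its brighter probe set 1369008_a_at read 1873, 1512 and 1547 in HRG, 4914, 6494 and 6071 in PTN and 14458, 13894 and 17982 in BSN. Olfm1 was 3.51-fold lower in HRG than in PTN and 9.3-fold lower in HRG than in BSN. In PTN it had covered 56.3% of the log2 distance between its HRG and BSN levels. Purified pleiotrophin gave 2.65-fold less than whole conditioned medium (log2 difference -1.40 ± 0.157 SE, limma, adjusted p = 0.000109), and 1.52% of all kept probe sets differed as much or more between those media. The second, dimmer probe set, 1387927_a_at, kept the order at 111.9 to 282.5 in HRG, 557.8 to 696.6 in PTN and 1474 to 1811 in BSN. Its HRG and PTN means lay below the 40th percentile of their arrays, so no fold is given. It exceeded that percentile on every BSN array, on PTN replicate 2 and on no HRG array, so its high BSN signal kept it. Its difference between PTN and BSN passed (limma, adjusted p = 0.0089), which is therefore no separate support.

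Because Olfm1 is best known from neurons, the 8 neuron markers, all on the array, are set beside it. Their summed signal was 6332 to 7613 in HRG, 9784 to 11749 in PTN and 11595 to 12679 in BSN, and 4 of the 8 in HRG and 2 of the 8 in PTN and in BSN were below the 40th percentile on every array of the medium. Of the 6 kept genes 4 were lower in HRG than in BSN and 2 lower in HRG than in PTN, against 8.86% and 11.7% of all kept probe sets. With median centring, and with quantile normalization, both counts were 3. Dcx averaged 57.7 ± 22.6 in HRG, 1123 ± 210 in PTN and 988 ± 123 in BSN (SD, n = 3). Map2 averaged 611 ± 154, 2651 ± 793 and 3050 ± 433, and both HRG means lay below the 40th percentile. Syp and Tubb3 passed in neither comparison of HRG. In PTN against BSN only Gap43, a growth cone protein, was called, as lower (limma, adjusted p = 0.0208), a call lost with median centring (0.111) and quantile normalization (0.0668). The part of neuron-type RNA in the Olfm1 signal was not tested. In such bulk RNA fewer cells of a type and less RNA per cell cannot be told apart.

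Rnase4, the secreted ribonuclease, was the one member several-fold higher in PTN than in both other media. Its probe set 1371475_at gave 1453, 1421 and 910.1 in HRG, 12494, 8555 and 8506 in PTN and 2468, 3517 and 2606 in BSN. The media did not overlap, with PTN highest and HRG lowest. Rnase4 was 7.76-fold lower in HRG than in PTN, and 2.27-fold lower in HRG than in BSN. It was 3.41-fold higher in PTN than in BSN (log2 difference 1.77 ± 0.215 SE, limma, adjusted p = 0.000199), and 0.643% of kept probe sets differed as much or more. A second Rnase4 probe set, 1368943_at, read 333.8 to 463.7 in HRG, 345.5 to 846.8 in PTN and 89.8 to 463.5 in BSN, overlapped between all media and was not kept. It therefore bears no measured difference of its own.

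Ang, which encodes angiogenin of the same family, has a RefSeq start 54 bases before that of Rnase4, and the genes are known in mammals to share promoters. Ang averaged 664 ± 133 in HRG, 979 ± 161 in PTN and 849 ± 99.5 in BSN (SD, n = 3), with 2 of 9 arrays below the 40th percentile, and did not pass in HRG against PTN (limma, adjusted p = 0.0689), HRG against BSN (0.295) or PTN against BSN (0.527). In HRG against PTN Ang was lower and passed with median centring (0.0171) and quantile normalization (0.0168). The difference between Ang and Rnase4 was not tested. Rnase1l2, another pancreatic-type ribonuclease gene, averaged 118 ± 39.8 in HRG, 1259 ± 563 in PTN and 830 ± 372 in BSN. It was lower in HRG than in PTN (limma, adjusted p = 0.000132) and lower in HRG than in BSN (0.00105), with its HRG mean below the 40th percentile. Of the 4 ribonuclease genes kept, of 12 listed, the others were Rnaset2, an acid ribonuclease, and Rnh1, the ribonuclease inhibitor. Rnaset2 was 1.64-fold higher in HRG than in PTN (adjusted p = 0.00215). The Rnaset2 call in HRG against BSN (0.0498) and the Rnh1 call in PTN against BSN (0.0444) were each lost in 13 of 20 alternative fits.

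Tm4sf1, the L6 family membrane protein, had its lowest signal in HRG, close to the limit of the filter, and its highest in BSN. Its probe set 1373847_at gave 857.9, 635.3 and 667.8 in HRG, 3566, 3206 and 3321 in PTN and 6061, 5593 and 5359 in BSN. The media were fully apart in the order HRG, PTN, BSN, and 2 of the 3 HRG arrays lay below their own 40th percentile. Measured so near that limit, Tm4sf1 was 4.63-fold lower in HRG than in PTN and 7.78-fold lower in HRG than in BSN. It was also lower in PTN than in BSN, by 1.68-fold (log2 difference -0.75 ± 0.143 SE, limma, adjusted p = 0.00309). The means were 3364 ± 184 in PTN and 5671 ± 357 in BSN (SD, n = 3). Over all kept probe sets 10.7% differed as much or more between those media.

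Plpp3, the lipid phosphate phosphatase, was measured by 2 kept probe sets that gave different sizes of difference, and by another that was not kept. Probe set 1370950_at read 2426, 2346 and 2654 in HRG, 4697, 3348 and 3986 in PTN and 14370, 17469 and 17698 in BSN. By this probe set PTN lay close to HRG, at 25% of the log2 distance from HRG to BSN. Plpp3 was then 1.6-fold lower in HRG than in PTN, 6.61-fold lower in HRG than in BSN and 4.13-fold lower in PTN than in BSN (log2 difference -2.04 ± 0.151 SE, limma, adjusted p = 6.2e-06). Probe set 1372101_at read 5240, 5959 and 3817 in HRG, 6798, 12001 and 9791 in PTN and 18953, 14084 and 10333 in BSN, and here PTN and BSN overlapped. It was 1.88-fold lower in HRG than in PTN and 2.84-fold lower in HRG than in BSN, and its log2 difference of PTN from BSN, -0.60 with a 95% interval of -1.13 to -0.06, did not pass over all probe sets (limma, adjusted p = 0.103). As large a difference between PTN and BSN, or larger, was found in 0.386% of kept probe sets for 1370950_at and in 18.1% for 1372101_at. The third, 1370951_at, which the probe table bases on the same sequence record as 1370950_at, read 113.1 to 133.8 in HRG, 154.5 to 197.4 in PTN and 217.7 to 1106 in BSN and was not kept.

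The disagreement between the bright Plpp3 probe sets was itself compared, a choice made after their values were seen. The log2 ratio of 1370950_at to 1372101_at within an array averaged -1.22 ± 0.655 in PTN and 0.23 ± 0.591 in BSN (SD, n = 3), and the arrays of PTN and BSN did not overlap (exact two-sided permutation p = 0.1, the smallest that 3 against 3 can give). In HRG the ratio averaged -0.99 ± 0.421, apart from BSN (p = 0.1 by the same permutation test) and overlapping PTN (p = 0.7). Whether the probe sets read different ends or forms of the transcript was not tested. The 3'/5' ratio of the actin control, a measure of RNA length after 2 rounds of in vitro transcription, was 25.2 ± 5.87 in HRG, 16.6 ± 1.39 in PTN and 33.2 ± 4.91 in BSN (SD, n = 3). PTN lay apart from both other media, and HRG overlapped BSN. That of GAPDH was 2.92 ± 0.802 in HRG, 5.14 ± 1.98 in PTN and 4.57 ± 1.11 in BSN, with PTN and BSN overlapping. By GAPDH every HRG array lay below every BSN array, while HRG overlapped PTN. The part of RNA length in these differences, and in those of HRG from the other media, was not tested.

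Marchf11, the ubiquitin ligase, was bright in both PTN and BSN and somewhat higher in PTN. Its probe set 1376215_at gave 3660, 2537 and 4179 in HRG, 26032, 27777 and 29312 in PTN and 19280, 18274 and 15883 in BSN. No 2 media overlapped, and even in HRG the gene stood above 70.4% to 80.4% of probe sets on its arrays. Marchf11 was 8.14-fold lower in HRG than in PTN and 5.22-fold lower in HRG than in BSN. It was 1.56-fold higher in PTN than in BSN (log2 difference 0.64 ± 0.169 SE, limma, adjusted p = 0.0172), a call lost without BSN replicate 3 (0.0779) or PTN replicate 3 (0.0594). Over all kept probe sets 15.7% differed as much or more between PTN and BSN.

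**Figure D1:**
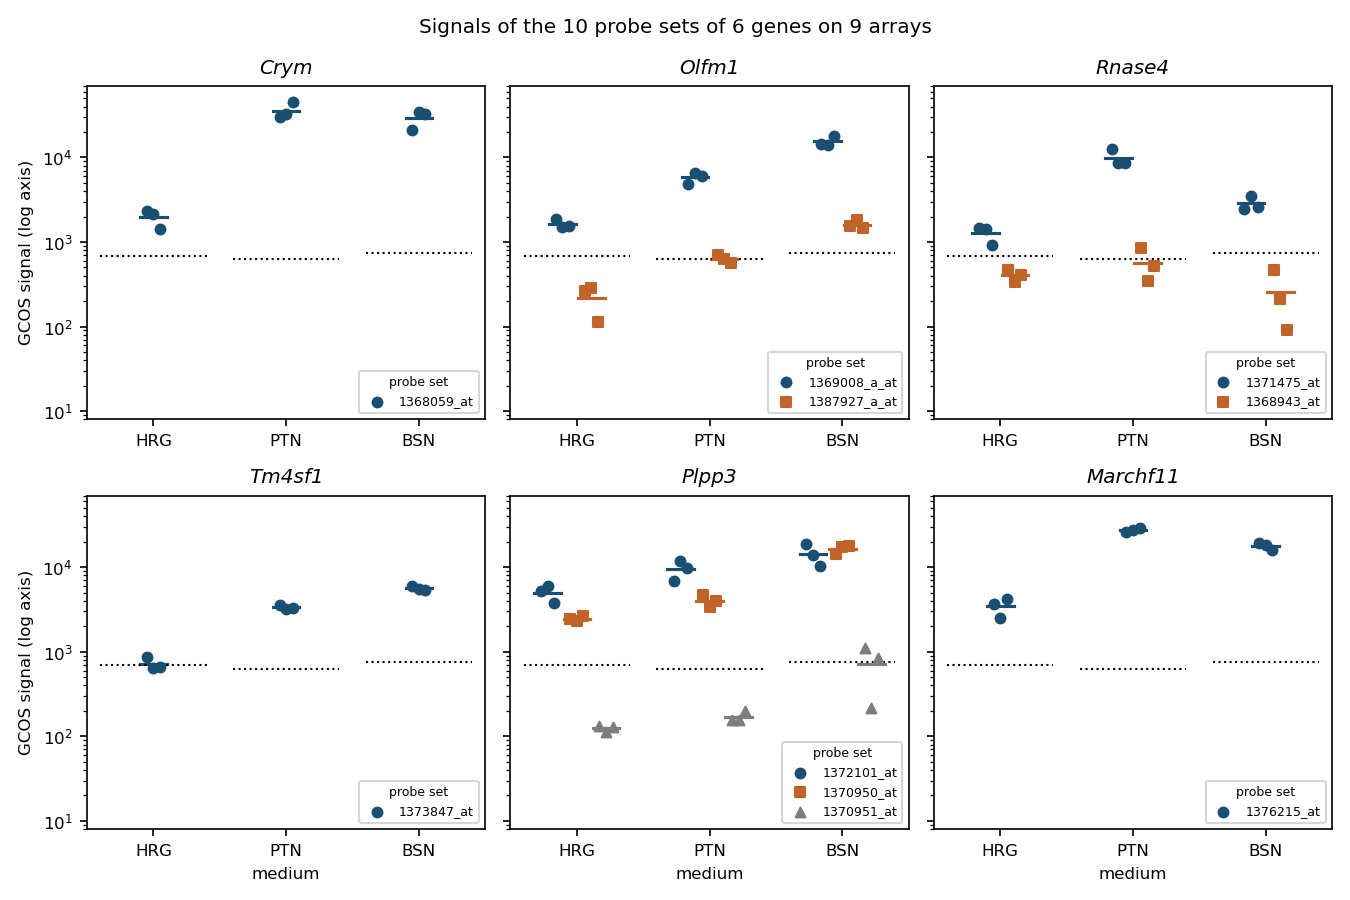
GCOS signal on a log axis of each probe set of the 6 genes in HRG, PTN and BSN, with a point per array, a short line at the mean of 3 arrays and a dotted line at the mean 40th percentile of the medium's arrays. Crym and Marchf11 are high in both PTN and BSN, Rnase4 (1371475_at) is high in PTN alone at 8506 to 12494, and Olfm1, Tm4sf1 and Plpp3 are highest in BSN.

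**Figure D2:**
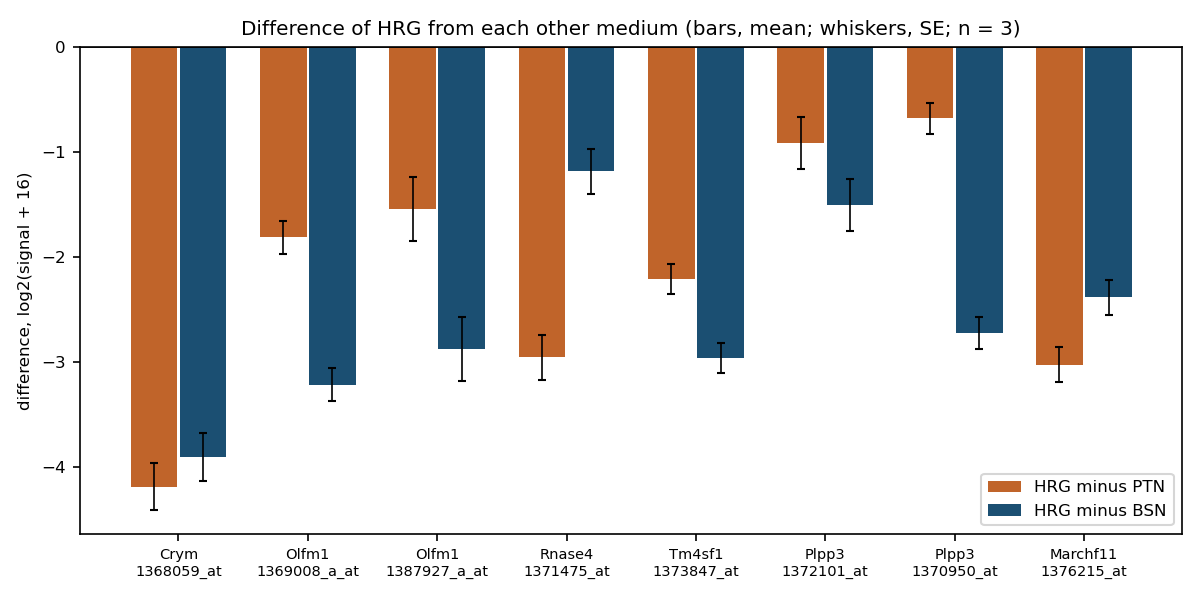
Difference of HRG from PTN and from BSN in log2(signal + 16) for the 8 kept probe sets, with SE whiskers (n = 3 arrays a medium). Crym has deep bars against both media (-4.19 and -3.90), Rnase4 mainly against PTN (-2.96 and -1.19) and Plpp3 1370950_at mainly against BSN (-0.68 and -2.73); the bars of Olfm1 1387927_a_at rest on means below the 40th percentile.

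The HRG bars of the plot of heregulin differences restate the choice of genes. All 8 kept member probe sets had every HRG array below every PTN and every BSN array. Over all kept probe sets that held for 17.4% against PTN and for 20.9% against BSN, and nothing is read from the members' count. To place them, probe sets were listed with a mean signal of at least 5000 in the brighter of PTN and BSN and at least 4-fold less in HRG than there, limits set after the values were seen. Such probe sets numbered 42 of 10106 (0.416%), 35 of them with a single symbol. All 6 genes were among them, each by 1 probe set, at fold ranks 3 (Crym), 10 (Olfm1), 14 (Marchf11), 15 (Tm4sf1), 16 (Rnase4) and 20 (Plpp3). The other bright Plpp3 probe set, at 2.84-fold, fell outside.

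The 6 genes differed in which of the other media held their higher mean, though not every such difference passed. In PTN against BSN, 2 of 8 kept member probe sets were higher in PTN (Rnase4 and Marchf11) and 2 did not pass (Crym and Plpp3 1372101_at). The other 4 were lower in PTN, namely Plpp3 1370950_at, Tm4sf1 and 2 of Olfm1, the dimmer of which was kept through its BSN signal. Of the 8, the PTN and BSN arrays lay apart for the 6 that passed, and for 38.5% of all kept probe sets. Over all 10106 probe sets 22.5% passed in this comparison, 9.15% as higher and 13.4% as lower in PTN. That balance turned with the scaling: median centring gave 15.8% higher and 6.38% lower, and quantile normalization 9.81% and 9.92%. The members were picked for a high signal in one of these media, so their share of calls is not set against the background. Their differences ran from -2.04 to 1.77 on the log2 scale, against a median of -0.11 over all kept probe sets. After median centring of the arrays the same 8 differences ran from -1.83 to 1.98, and every one kept its sign and call. In terms of the log2 distance from HRG to BSN, PTN stood at 25% and 60.5% for the Plpp3 probe sets, 56.3% for Olfm1 1369008_a_at, 74.7% for Tm4sf1, 107% for Crym, 127% for Marchf11 and 249% for Rnase4. Crym and Marchf11 adjoin in that order, and the interval of the Crym difference (-0.21 to 0.78) overlaps that of Marchf11 (0.27 to 1.01).

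**Figure D3:**
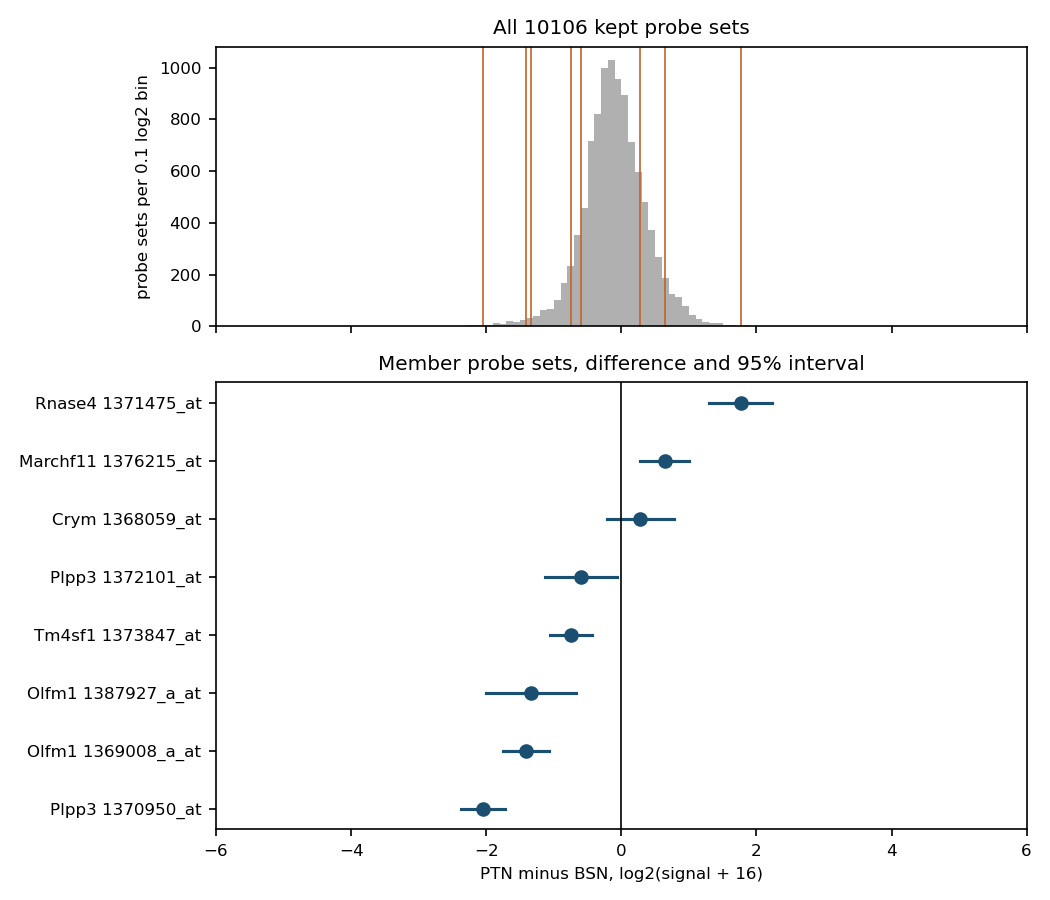
Difference of PTN from BSN in log2(signal + 16). The upper panel is a histogram of all 10106 kept probe sets with the 8 member values as lines, and the lower panel gives each member with its unadjusted 95% interval: Rnase4 lies at 1.77, Crym spans 0 and Plpp3 1370950_at lies at -2.04.

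Likeness between genes was measured as the root mean square difference, over the 9 arrays, of log2 values centred on each gene's own mean, and it mostly reflects the levels of 3 media. Among the 6 genes Olfm1 and Tm4sf1 were the most alike (0.328) and Crym and Plpp3 the least (1.45). The genes nearest to Crym were Ret, the GDNF receptor of the tip (0.243), Wnt5b (0.273) and the chemokine receptor Cxcr4 (0.371). Nearest to Marchf11 were Cxcr4 by another probe set (0.292), the guidance protein Sema5a (0.355) and the connexin Gja1 (0.365). Nearest to Olfm1 were Tcf7, a transcription factor of Wnt signalling (0.309), Tm4sf1 itself and Igsf3 (0.34), and nearest to Tm4sf1 the noncoding RNA Lnc215 (0.248), Tcf7 (0.305) and the complement protease C1r (0.308). Nearest to Rnase4 were Enpp2 (0.281), the topoisomerase Top2a (0.394) and the TGF-beta binding protein Ltbp1 (0.418). Plpp3, by 1372101_at as its brightest probe set over all arrays, was nearest to Tmeff1 (0.202), the bicarbonate carrier Slc4a7 (0.225) and the deubiquitinase Usp1 (0.248). In HRG the means of Wnt5b, Cxcr4 by the first probe set, Tcf7, C1r, Sema5a, Enpp2, Ltbp1 and Usp1 lay below the 40th percentile, so their likeness rests in part on values near the floor.

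Genes related to the members were tested one by one in the same fit and are counted by list. Over all kept probe sets 14.1% were higher and 11.7% lower in HRG against PTN (25.8% in all), and 6.92% were higher and 8.86% lower in HRG against BSN (15.8% in all). Median centring turned both balances, to 9.33% higher and 14.4% lower in HRG against PTN and 8.46% higher and 6.16% lower in HRG against BSN. Quantile normalization gave 12% and 12.4% against PTN and 7.83% and 8.52% against BSN.

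The list set beside Plpp3, mostly of its pathway, had 12 kept genes of 23, members left out. Enpp2 encodes autotaxin, the secreted enzyme that makes lysophosphatidic acid, the lipid that Plpp3 degrades. It averaged 418 ± 77.8 in HRG, 2950 ± 496 in PTN and 1286 ± 145 in BSN (SD, n = 3). Enpp2 was lower in HRG than in PTN (limma, adjusted p = 7.48e-07) and than in BSN (9.6e-05), with its HRG mean below the 40th percentile, and 2.27-fold higher in PTN than in BSN (0.00108). Lpar1, a receptor for that lipid, was lowest in PTN, at 3947 ± 219 in HRG, 1800.5 ± 371 in PTN and 3862 ± 276 in BSN. It was 2.21-fold higher in HRG than in PTN (adjusted p = 0.000201) and 2.16-fold lower in PTN than in BSN (0.000541). Of the phosphatase paralogs, Plpp2 was 1.86-fold higher in HRG than in PTN (0.00113) and 1.71-fold higher in HRG than in BSN (0.00429). Plpp1 was 1.68-fold lower in PTN than in BSN (0.00117), the direction of Plpp3, and 1.54-fold higher in HRG than in PTN (0.00237). Plpp6 was 1.35-fold higher in HRG than in PTN (0.0382, lost with median centring at 0.165 and quantile normalization at 0.0914), and Plpp4 and Plpp5 passed in no comparison. The list also holds Lipa, a lysosomal lipase that is not part of this pathway, 1.34-fold higher in HRG than in PTN (0.0453). With Lipa counted, of the 12 genes 5 were higher and 2 lower in HRG against PTN, 1 higher and 1 lower in HRG against BSN, and 1 higher and 3 lower in PTN against BSN, with median log2 differences of 0.41, -0.07 and -0.21 against 0.08, -0.04 and -0.11 over all kept probe sets. With median centring these counts were 3 higher and 2 lower, 2 higher and 1 lower, and 1 higher and 2 lower.

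Of the thyroid hormone list, set beside Crym, 11 of 19 genes were kept. Slc16a10, a transporter of aromatic amino acids and thyroid hormone, averaged 729 ± 159 in HRG, 1869 ± 201 in PTN and 2286 ± 274 in BSN (SD, n = 3). It was 2.56-fold lower in HRG than in PTN (limma, adjusted p = 0.000152) and 3.13-fold lower in HRG than in BSN (5.71e-05). Klf9, a transcription factor induced by thyroid hormone and by glucocorticoid, was lowest in PTN, at 5883 ± 1162 in HRG, 2899 ± 423 in PTN and 7211 ± 419 in BSN. It was 2.01-fold higher in HRG than in PTN (0.000588) and 2.49-fold lower in PTN than in BSN (0.000202). Ncoa1, a nuclear receptor coactivator, was 1.53-fold higher in HRG than in PTN (0.00642, and 0.0501 without HRG replicate 2 and PTN replicate 2) and 1.53-fold lower in PTN than in BSN (0.00864, lost with median centring at 0.0619). Thra, the thyroid hormone receptor alpha gene, did not pass in HRG against PTN (0.947), HRG against BSN (0.668) or PTN against BSN (0.543). In all 2 genes were higher and 1 lower in HRG against PTN, 1 lower in HRG against BSN and 2 lower in PTN against BSN. The list medians were 0.26, -0.05 and -0.27 in that order.

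Lists set beside the other members also divided. Of 26 L6 family genes and tetraspanins 16 were kept, all of them tetraspanins, so no other L6 family gene was tested. Of these 16, 3 were higher and 2 lower in HRG against PTN, and 5 higher and 2 lower in HRG against BSN. In PTN against BSN 2 were higher and 3 lower. With median centring the last count was 3 higher and 0 lower, the calls of Cd151 (0.0871) and Tspan1 (0.199) among those lost. Tspan8, a tetraspanin, went opposite to Tm4sf1, at 16826 ± 2337 in HRG, 1473 ± 314 in PTN and 1280 ± 345 in BSN (limma, adjusted p = 1.86e-07 for HRG against PTN and 1.35e-07 for HRG against BSN). Tspan1 was 2.04-fold higher in HRG than in PTN (8.26e-05), and Cd82 was 2.11-fold higher in HRG than in BSN (0.00612) and 1.95-fold higher in PTN than in BSN (0.00987). Of 6 kept MARCH ligase genes of 10, 1 was higher in HRG against PTN, 1 higher in HRG against BSN, and none was lower in either. In PTN against BSN 1 was higher and 2 were lower. Marchf2, a ligase of endosomes, was 2.12-fold higher in HRG than in PTN (0.000262). Marchf7, a cytosolic ligase of the family, was 1.53-fold higher in PTN than in BSN (0.0027), the same direction as Marchf11, while Marchf2 (0.00586) and Marchf9 (0.0187) were called lower in PTN. The Marchf2 call was lost with median centring (0.0557). The Marchf9 call was lost with quantile normalization (0.0543), without BSN replicate 1 (0.0755), BSN replicate 3 (0.0746) or PTN replicate 2 (0.0534), and without HRG replicate 2 and PTN replicate 2 together (0.0508). The call higher in HRG than in BSN was that of Marchf8, lost in 5 of 20 alternative fits. With median centring 2 of the 6 genes were higher and 1 lower in PTN against BSN.

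Of 18 olfactomedin family genes and partners 6 were kept. Adgrl2, a latrophilin with an olfactomedin domain of its own, averaged 5852 ± 397 in HRG, 11342.5 ± 955 in PTN and 9305 ± 1107 in BSN (SD, n = 3), and was 1.93-fold lower in HRG than in PTN (limma, adjusted p = 0.000201) and 1.58-fold lower in HRG than in BSN (0.00416). Adgrl1, its paralog, was lower in HRG than in BSN (0.0028) and lower in PTN than in BSN (0.0044), with its HRG mean of 641 ± 86.5 below the 40th percentile. Olfml3, a secreted olfactomedin-like protein, was 2.1-fold higher in HRG than in PTN (0.00439). It was also higher in HRG than in BSN (0.00489), with its BSN mean of 655 ± 73 below the 40th percentile. In all 1 of the 6 was higher and 1 lower in HRG against PTN, 1 higher and 2 lower in HRG against BSN, and 1 lower in PTN against BSN.

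**Figure D4:**
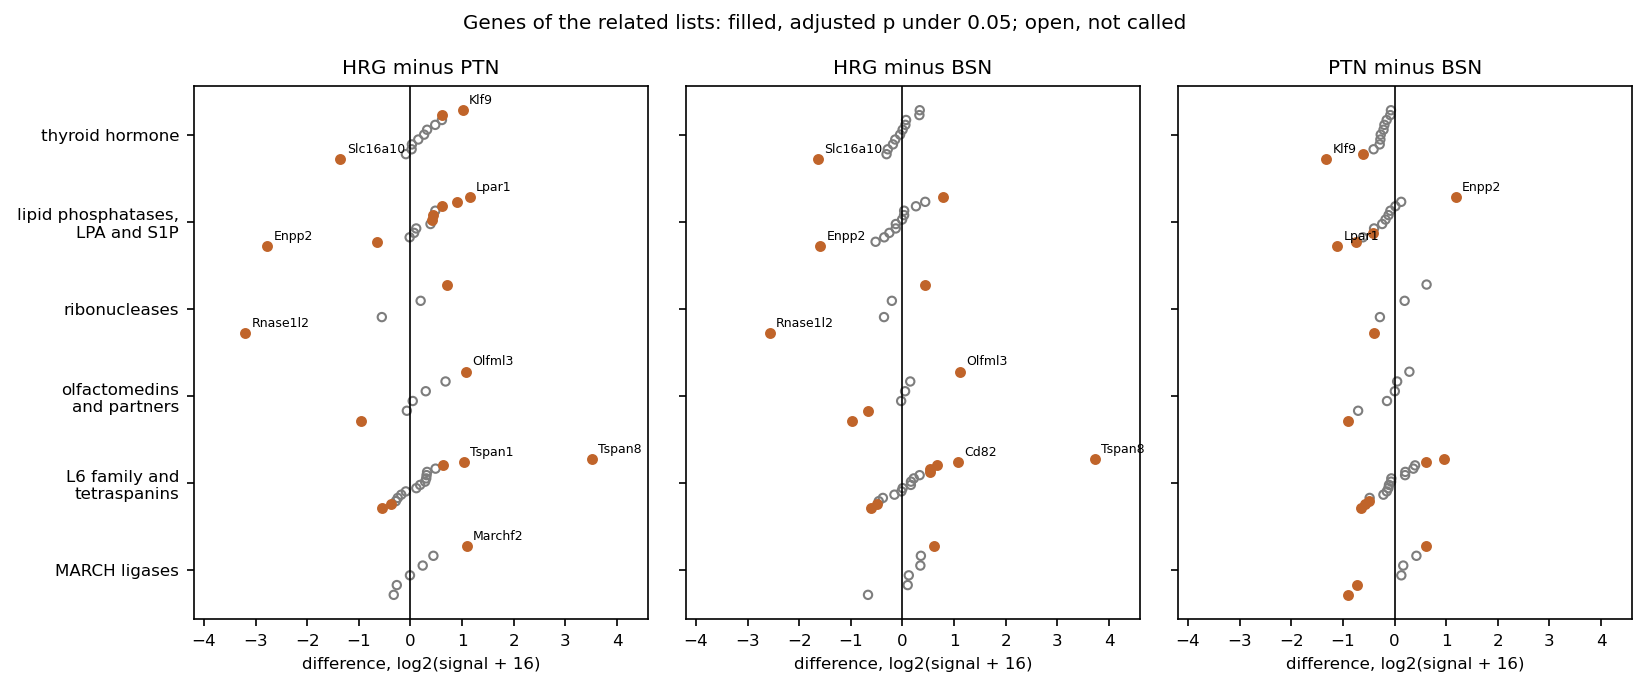
Difference in log2(signal + 16) of each kept gene of the 6 related lists in the 3 comparisons, with filled points for an adjusted p under 0.05 and open points for the rest, and names for called genes past 1 on the log2 scale. Enpp2, Rnase1l2 and Slc16a10 lie to the left of -1 in both comparisons of HRG, and the HRG means of Enpp2 and Rnase1l2 lie below the 40th percentile. Tspan8 lies far to the right in both, and most points of every list lie between -1 and 1.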

How the data were processed

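RNA from cultured rat ureteric buds was amplified by double in vitro transcription and hybridised to 9 arrays, 3 per medium, per the labels' protocols. The deposited values are linear signal intensities, and the submitters' processing notes name GCOS, with its version not given in the sources used here. No further scaling was applied. Symbols came from the platform's probe table, updated through a rat RefSeq gene table (GRCr8), which changed 1 symbol. Dim probe sets were dropped: 3 or more arrays had to exceed their own 40th percentile. A group mean under that percentile gets no fold. Signals were analysed as log2(signal + 16), so folds are smaller than signal ratios where signals are low.

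All 9 arrays entered one limma 3.58.1 model (R 4.3.3; variances moderated by eBayes along a trend in signal). Adjusted p is limma's, by Benjamini-Hochberg over all 10106 kept probe sets, with a threshold of 0.05. The number of arrays limits the precision (12.7 degrees of freedom after moderation). The fit was tested on simulated data. The members and gene lists were chosen with earlier results of these data known. Each list gene entered by its brightest kept probe set. Named genes were the members, the 3 nearest genes to each, and up to 3 called genes with the smallest adjusted p per list and comparison, a selection of which is described. To see whether equal replicate numbers pair arrays, deviations from the group mean were correlated. All 3 such pairs of HRG with PTN exceeded 0.1 (0.118 to 0.332), and no pair of PTN with BSN did (-0.097 to -0.011). By that rule the numbers pair HRG with PTN arrays, though the labels tie no numbers together. The reported values come from the fit without that block. Promoter sequences are from RefSeq. Alternatives were other scalings, pseudocounts of 1 and 64, other filters, no trend, array weights, only the groups compared, a replicate block and arrays left out.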

Additional observations from a re-analysis of the deposited data

How the results depend on the processing

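In PTN against BSN the 8 member probe sets kept their direction in every alternative run, and the calls of Olfm1, Rnase4, Tm4sf1 and Plpp3 1370950_at held in each that kept the probe set. The Marchf11 call was lost without BSN replicate 3 or PTN replicate 3, with differences of 0.56 to 0.70 over the fits with arrays left out, and Crym and Plpp3 1372101_at passed in none. The replicate block changed no member's call, with a Marchf11 difference of 0.64, no named list call in HRG against PTN, where the numbers paired, and it lost the Rnh1 (PTN against BSN) and Rnaset2 (HRG against BSN) calls. The called probe sets in PTN against BSN numbered 2276, 3480 with array weights and 1358 to 3222 with arrays left out, the lowest without BSN replicate 3. Those in HRG against BSN numbered 1594, 2439 with array weights and 1048 to 2225 with arrays left out, including 1053 without HRG replicate 3. Those in HRG against PTN numbered 2603, and 1657 to 3109 with arrays left out. Leaving out HRG replicate 2 and PTN replicate 2 together, chosen after the data were seen, gave 1429, 1048 and 1657 calls in these comparisons. Of the HRG differences, which have no test, Olfm1 1387927_a_at was open to 1 array. Its fitted values, which are no folds because its HRG and PTN means lie below the 40th percentile, ran from -3.10 to -2.49 against BSN and from -1.76 to -1.15 against PTN, the smallest without HRG replicate 3, and Marchf11 against PTN ran from -3.18 to -2.81. Signals near the 40th percentile limit Tm4sf1 in HRG and the dim probe sets of Olfm1, Rnase4 and Plpp3, and 3 arrays a medium limit every exact test to p = 0.1.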

Other observations

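Among the 42 bright probe sets at least 4-fold lower in HRG, which include the 6 members, PTN was the brighter medium for 24 and BSN for 18. Xist, which was almost absent on HRG replicate 2 and PTN replicate 2, is in that list, which was chosen on signals of the same arrays.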
